A study of Homo sapiens with 3 samples.

Results

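Many human genes lie so close to a neighbour that 1 peak of a chromatin factor falls beside the ends of both. Of the shared anti-FOXM1 peaks of untreated Huh7 cells, 571 of 5716 (9.99%, exact 95% interval 9.22 to 10.8) stood, by their summit, at most 1 kb away from ends of 2 or more different protein-coding genes, and these peaks are described here. They were chosen by the peak calls of both libraries and by position: a replicate 2 peak on chromosomes 1 to 22 or X that overlapped a replicate 3 peak by at least 1 bp, with the replicate 2 summit setting the distance. Another 3402 shared peaks lay at the ends of 1 gene and 1743 at no protein-coding gene end. The 571 peaks lay at 973 of 19974 protein-coding genes (4.87%), with 557 peaks at 2 genes and 14 at 3.

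FOXM1 is a forkhead transcription factor of proliferating cells, known to reach cell cycle promoters through its own DNA-binding domain and through the MuvB complex. Its occupancy was measured by ChIP-seq, which sequences the DNA fragments pulled down by an antibody, in Huh7, an established line from a human liver carcinoma. There were 3 samples, all of untreated Huh7: 1 input library, whose own peaks were not analysed here, and 2 ChIP libraries, replicates 2 and 3, pulled down with the FOXM1 antibody G-5. Nothing in the labels says whether these came from separate cultures, so differences between them may be technical, and a peak list gives no expression with which to check the cell line. The peaks are calls of a single antibody, and its specificity was not tested.

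Neighbouring genes can face each other in several ways. Where 2 genes on opposite strands begin close together and run apart, the stretch between their starts is a bidirectional promoter, usually a CpG island that lacks a TATA box, and DNA repair, mitochondrial and housekeeping genes are known for this layout. Where genes follow each other on the same strand, the finish of the first lies before the start of the next, and where genes on opposite strands run towards each other, their finishes meet. RefSeq promoter records gave the strand of 15812 of the 19974 genes (79.2%), so the layout was known for 408 of the 571 peaks.

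The bases between the starts are printed for 7 of the 9 highest-ranked divergent pairs for which the whole stretch was in the table, because they are the DNA that both genes share as a promoter, and for NOP14/GRK4, picked after the letters were seen because it was the only such stretch with the forkhead letters TGTTTAC. Each is the plus strand of GRCh38 from RefSeq, 5′ to 3′, named with the minus-strand gene first. Capitals mark the motifs searched on both strands: GGGCGG (the letters of an SP factor site), CCAAT (bound by NF-Y), CCGGAAG (letters bound by ETS factors), CACGTG (the E-box of MYC and USF factors) and TGTTTAC.
TRAPPC3/MAP7D1: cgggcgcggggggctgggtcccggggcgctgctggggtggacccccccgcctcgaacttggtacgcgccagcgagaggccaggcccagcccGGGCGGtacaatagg
WDR53/FBXO45: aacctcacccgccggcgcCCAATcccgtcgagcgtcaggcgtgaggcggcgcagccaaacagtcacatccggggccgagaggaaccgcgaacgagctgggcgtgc
PLAGL2/POFUT1: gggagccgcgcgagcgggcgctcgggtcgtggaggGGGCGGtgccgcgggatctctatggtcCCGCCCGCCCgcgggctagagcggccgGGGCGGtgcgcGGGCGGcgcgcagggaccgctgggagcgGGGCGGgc
RNF166/CTU2: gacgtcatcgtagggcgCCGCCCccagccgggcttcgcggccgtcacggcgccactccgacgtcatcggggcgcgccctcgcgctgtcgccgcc
EMC8/COX4I1: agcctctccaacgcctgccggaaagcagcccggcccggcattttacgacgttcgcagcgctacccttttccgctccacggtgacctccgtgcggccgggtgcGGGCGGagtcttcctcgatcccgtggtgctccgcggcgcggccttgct
TSR3/GNPTG: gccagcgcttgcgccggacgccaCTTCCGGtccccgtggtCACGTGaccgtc
RAB24/PRELID1: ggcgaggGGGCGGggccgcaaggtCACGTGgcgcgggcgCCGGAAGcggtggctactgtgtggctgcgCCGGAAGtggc
NOP14/GRK4: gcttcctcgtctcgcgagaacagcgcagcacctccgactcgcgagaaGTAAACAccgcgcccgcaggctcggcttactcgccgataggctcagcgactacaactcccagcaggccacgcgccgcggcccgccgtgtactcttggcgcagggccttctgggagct

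The stretches run over chr1:36156054-36156159 for TRAPPC3/MAP7D1, chr3:196568555-196568659 for WDR53/FBXO45 and chr20:32207744-32207879 for PLAGL2/POFUT1. Those of chromosome 16 are chr16:88706409-88706502 for RNF166/CTU2, chr16:85799545-85799694 for EMC8/COX4I1 and chr16:1351879-1351930 for TSR3/GNPTG. RAB24/PRELID1 has chr5:177303720-177303798 and NOP14/GRK4 has chr4:2963407-2963570. They are short, between 52 and 164 bases, and rich in G and C, from 67.1% at NOP14/GRK4 to 83.8% at PLAGL2/POFUT1, which alone holds 6 matches to GGGCGG. At RAB24/PRELID1, 1 GGGCGG, 1 CACGTG and 2 CCGGAAG stand within 79 bases. Across the 102 divergent pairs whose full stretch was in the table (49 to 250 bases), 70 held GGGCGG (68.6%), 20 held CCAAT (19.6%), 19 held CCGGAAG (18.6%) and 13 held CACGTG (12.7%). TTTGAA, the CHR element of cell cycle promoters, was in 2 and TGTTTAC in 1. A match is a description of letters, not a site.

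The strongest peaks were ranked by the lower of the fold enrichments in the 2 libraries, where fold is the fragment pile-up at the summit over the local background, each with 1 added. Intervals on fold are 95% Poisson intervals of the rebuilt fragment count and cover counting error only. First stood the peak between SCRIB, a cell polarity gene, and PUF60, a splicing factor gene, on chromosome 8 (143815570 to 143816208). Fold there was 7.21 in replicate 2 (5.04 to 10.02, on 33 fragments) and 6.47 in replicate 3 (4.41 to 9.18, on 29), with the replicate 2 summit 160 bp from SCRIB and 411 bp from PUF60. The replicate 2 value of PYGO2/SHC1 was higher, 7.84 on 50 fragments against 5.67 on 38 in replicate 3 (chromosome 1, 154961495 to 154962433). That summit stood between the start of PYGO2, a coactivator gene of the Wnt pathway, and the finish of SHC1, an adaptor gene of receptor tyrosine kinases, at 307 and 209 bp.

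At divergent pairs the leading peaks lay near or between the starts. The peak of TRAPPC3, which encodes a subunit of the TRAPP vesicle tethering complex, and MAP7D1, a microtubule-associated protein gene, had fold 6.29 in replicate 2 (4.51 to 8.56) and 5.96 in replicate 3 (4.21 to 8.22). Its replicate 2 summit (peak chr1 36155884 to 36156111) lay 59 bp inside TRAPPC3. The replicate 3 summit lay between the starts, 91 bp from that of TRAPPC3 and 16 bp from that of MAP7D1. At PLAGL2, a zinc finger factor gene, and POFUT1, which encodes the O-fucosyltransferase of Notch receptors, fold was 5.51 (4.15 to 7.19, on 52 fragments) and 5.42 (4.06 to 7.11, on 50). Here the summits of both libraries sat in the printed stretch. That of replicate 2 was 61 bp from one start and 76 bp from the other (peak on chromosome 20, 32207556 to 32208009). The peak of WDR53 and FBXO45, the latter a substrate receptor of a ubiquitin ligase, had fold 5.76 and 5.43. Its replicate 2 summit lay 137 bp inside FBXO45. In replicate 3 the summit lay between the starts, 58 bp from that of WDR53 and 48 bp from that of FBXO45.

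At CELF1, an RNA-binding protein gene, and PTPMT1, which encodes a mitochondrial phosphatase of cardiolipin synthesis, fold was 5.55 in replicate 2 and 5.25 in replicate 3. RNF166 and CTU2, the second acting in tRNA thiolation, had 5.89 and 5.09. Lower in rank, EMC8, of the ER membrane complex, and COX4I1, a cytochrome c oxidase subunit gene, had 5.29 and 4.87, and TSR3/GNPTG had 5.34 and 4.81. RAB24/PRELID1 had 5.16 and 4.70. NOP14/GRK4, the pair with the forkhead letters, had 2 peaks near the bottom, with 2.43 and 2.30 in replicate 2. Both overlapped the same replicate 3 peak, of fold 3.31. Neither replicate 2 summit lay in the printed stretch. They were 386.5 and -185.5 bp from the middle between the starts, which are 165 bp apart (negative towards NOP14). The replicate 3 summit lay in the stretch. In each of these pairs the intervals of the libraries overlapped.

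Overlapping starts, where 2 genes on opposite strands begin inside each other, gave MAP2K4, a kinase gene upstream of JNK, with ZNF18 (6.17 and 5.34), and TMEM176A with TMEM176B (4.95 and 5.12). Among peaks at a start and a finish on the same strand were NME3, a nucleoside diphosphate kinase gene, behind MRPS34 of the mitochondrial ribosome (5.59 and 5.41), and AMDHD2, of amino sugar breakdown, behind ATP6V0C, a proton pump subunit gene (5.38 and 5.86). PHF1, a Polycomb partner, behind the mitotic kinesin gene KIFC1 had 5.76 and 4.97. All 20 leading peaks had fold of at least 4.95 in both libraries, and 16 of the 571 reached 5 in both.

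**Figure D1:**
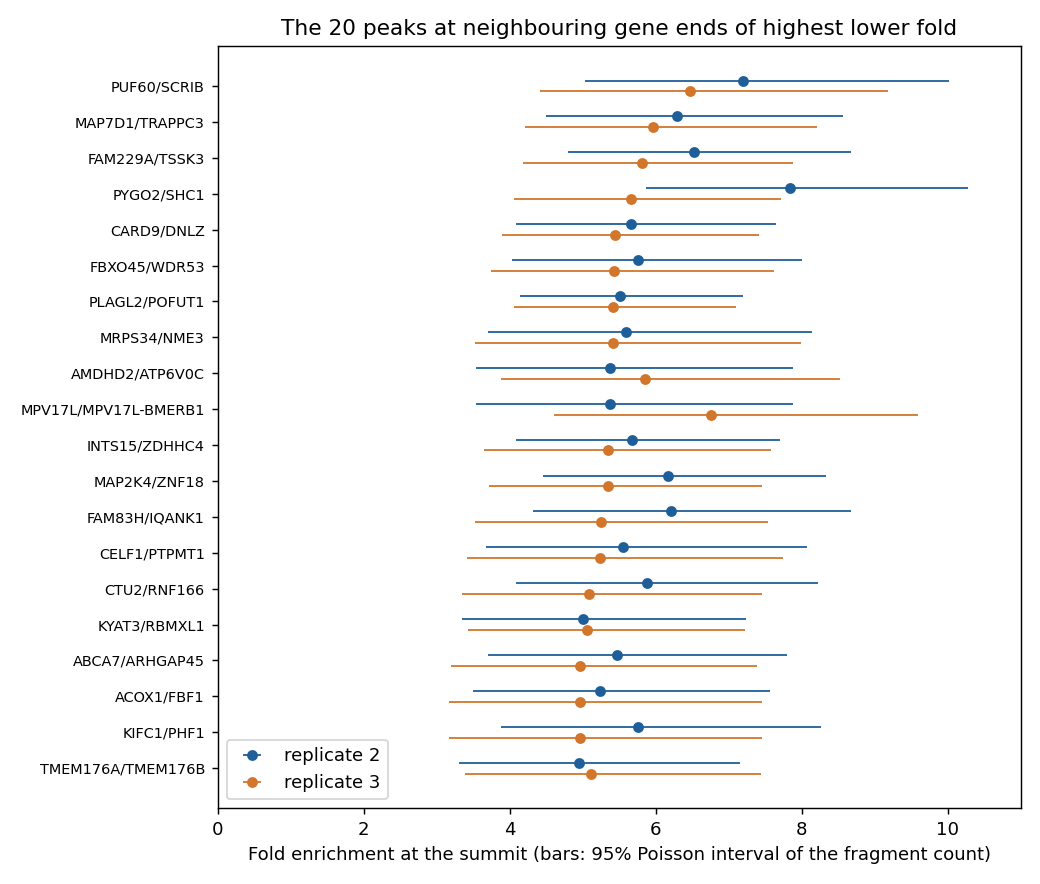
Fold enrichment at the summit (horizontal axis) of the 20 peaks at neighbouring gene ends with the highest lower fold, 1 row per gene pair, in replicate 2 (blue) and replicate 3 (orange), with 95% Poisson intervals of the rebuilt fragment count as bars. The intervals of both libraries overlap in every row, and all points lie between 4.95 and 7.84.

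The question of which layouts carried a peak was put to every pair of ends of different protein-coding genes at most 2 kb apart, 5477 in all, of which 523 (9.55%) had both ends within 1 kb of 1 of the 571 summits. The rule fixed none of the strands. Of divergent start pairs 170 of 865 had such a peak (19.7%, exact 95% interval 17.1 to 22.5), and of overlapping start pairs 75 of 342 (21.9%, 17.7 to 26.7). Pairs whose starts lay on the same strand had 26 of 195 (13.3%). For a start and a finish on the same strand it was 89 of 889 (10.0%, 8.12 to 12.2), and on opposite strands 12 of 227 (5.29%). Where finishes met on opposite strands it was 4 of 939 (0.426%, 0.116 to 1.09), and for finishes on the same strand 2 of 424 (0.472%). Pairs with a strand not given had 145 of 1596 (9.09%). These intervals treat pairs as independent, although several pairs can share a gene and a peak.

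The layouts differed in how far apart the ends lay, and a summit can be within 1 kb of both ends less easily the farther apart they are. Of the start and finish pairs on the same strand, 414 of 889 were 1001 to 2000 bp apart (5 with a peak, 1.21%), and of the divergent pairs 51 of 865 (2 with a peak). Among pairs at most 1 kb apart, a split added after the values were seen, the share was 20.6% for divergent starts (168 of 814, 17.9 to 23.6) and 17.7% for a start and finish on the same strand (84 of 475, 14.4 to 21.4), with overlapping intervals. It was 24.0% for overlapping starts (68 of 283), 14.6% for starts on the same strand (22 of 151) and 8.70% for a start and finish on opposite strands (8 of 92). Finish pairs remained low, with 3 of 638 on opposite strands (0.470%, 0.0971 to 1.37) and 2 of 395 on the same strand (0.506%). At these distances, then, the layouts with a start had 8.70% to 24.0% and those of finishes alone under 1%.

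**Figure D2:**
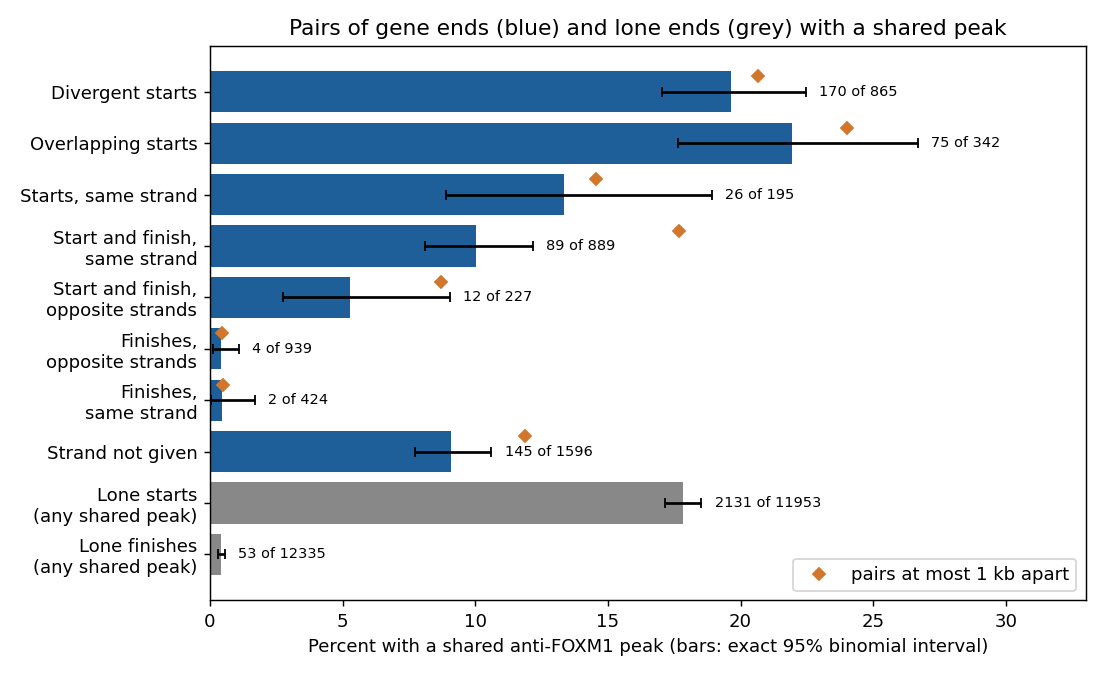
Percent of pairs of gene ends at most 2 kb apart with both ends within 1 kb of a shared summit, by layout (blue), and percent of ends with no other gene end within 2 kb that have any shared summit within 1 kb (grey), with exact 95% binomial intervals as bars and counts beside them, and orange diamonds for the pairs at most 1 kb apart. Start pairs reach 13.3% to 21.9%, and for a start and finish on the same strand the diamond lies at 17.7%, above the bar of 10.0%.

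Single ends were counted in the same way. A start with no other protein-coding gene end within 2 kb had a shared peak within 1 kb in 2131 of 11953 cases (17.8%), and such a lone finish in 53 of 12335 (0.430%). In the same window, starts in divergent pairs had one in 354 of 1705 cases (20.8%, 18.9 to 22.8), and starts in overlapping pairs in 162 of 675 (24.0%, 20.8 to 27.4). Starts beside a finish of the same strand, with no known start of the opposite strand within 2 kb, had one in 156 of 828 (18.8%, 16.2 to 21.7). The values for starts thus lay between 17.8% and 24.0%, although a start with a close second start has 2 places at which a peak can fall. Finishes beside a start of the same strand had one in 93 of 862 cases (10.8%), and finishes beside another finish in 31 of 2093 (1.48%).

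None of the genes on chromosome 8, with 28 of the peaks, had a strand. Of the 408 peaks with known layout, 403 had at least 1 start among the ends of their 2 nearest genes: 198 lay at divergent starts, 80 at overlapping starts, 25 at starts on the same strand, 93 at a start and finish on the same strand and 7 at a start and finish on opposite strands. The remaining 5 had only finishes among those ends. These were the peaks of LOC122513141/NDOR1 (fold 3.77 in replicate 2 and 4.71 in replicate 3), DCST2/ZBTB7B (3.20 and 3.62), DBN1/PRR7 (2.99 and 3.50), OAZ1/PEAK3 (2.93 and 3.64) and ENDOG/SPOUT1 with a read-through record (3.57 and 2.81). None of the 5 reached 4 in both libraries.

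At the 93 peaks with a start and a finish on the same strand, the replicate 2 summit was nearer to the start in 74 (79.6%), at a median of 150 bp from the start and 507 bp from the finish. The replicate 3 summit, which the rule did not use, was nearer to the start in 76 (81.7%), at 131 and 561 bp. The finish of the upstream gene was therefore near the peak in distance, but most summits stood by the start of the downstream gene. Examples are KIFC1/PHF1, 93 bp from the start of PHF1 and 423 bp from the finish of KIFC1, and BBS7/CCNA2, 29 bp from the start of CCNA2, which encodes cyclin A, and 417 bp from the finish of BBS7. At KIF22/MAZ the order was the other way, with the summit 20 bp from the finish of KIF22 and 719 bp from the start of MAZ.

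At divergent pairs most summits lay just inside one of the genes rather than between them. The starts of the 198 peaks were a median of 154.5 bp apart, and 59 replicate 2 summits (29.8%) and 57 replicate 3 summits (28.8%) fell in the gap. Of the other replicate 2 summits, 72 lay in the minus-strand gene and 67 in the plus-strand gene, at a median of 158 bp past the start. The rule allowed summits up to 1 kb from both starts. At the median distance the gap is a small part of that space, so no avoidance of the gap is read. The nearer start was a median of 124 bp away in replicate 2 and 118 bp in replicate 3, and it was the same start in both libraries at 156 of the 198 peaks (78.8%). At the 2646 shared peaks by the start of 1 gene alone, 70.8% of replicate 2 summits lay downstream of the start. At divergent pairs it was 70.2%, taken from the nearer start, so that the upstream side ends at the middle of the gap. The 2 shares are thus unlike measures, and their closeness is not read as a likeness.

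**Figure D3:**
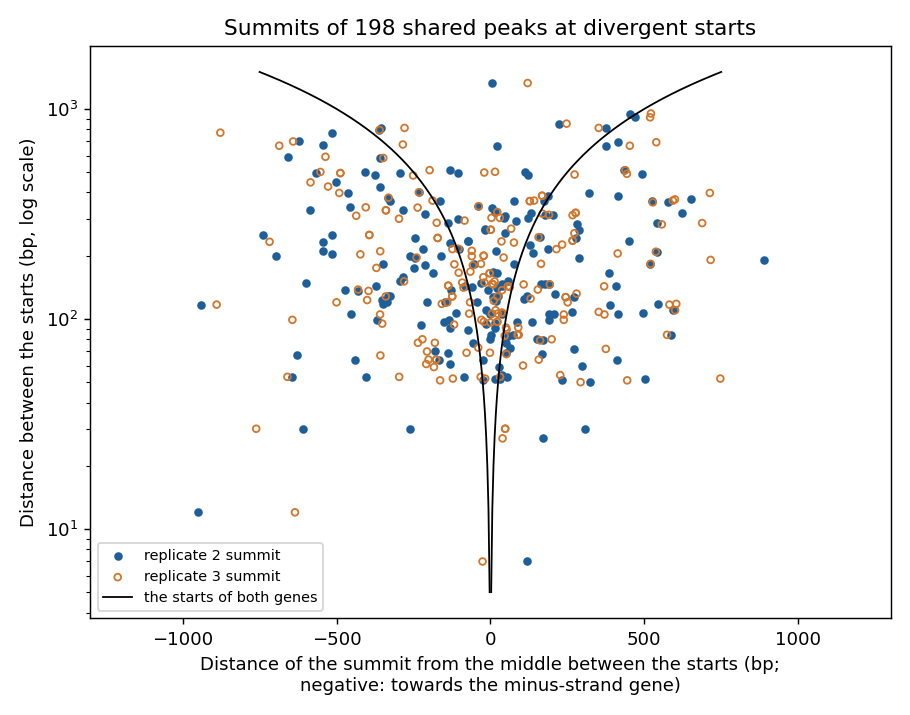
Distance of the summit from the middle between the starts (horizontal axis, bp, negative towards the minus-strand gene) against the distance between the starts (vertical axis, bp, log scale) for 198 peaks at divergent starts, replicate 2 filled and replicate 3 open. Lines mark the starts, and 29.8% of replicate 2 summits lie between them.

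The promoters at these peaks differed in base composition from promoters without a shared peak. RefSeq promoters of 300 bases (250 before the start and 50 after it) were available for 300 of 324 divergent starts at the peaks, with a median GC content of 72.2% (quartiles 68.0 and 76.0). Lone starts with a shared peak had 72.3% (n = 1942), close to the divergent ones. Divergent starts without a shared peak had 63.0% (n = 1228, quartiles 58.0 and 67.7) and lone starts without one 59.7% (n = 8503). The ratio of observed to expected CpG was 0.935, 0.893, 0.862 and 0.660 in the same order, so divergent promoters were rich in CpG with or without a peak.

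Within classes of equal GC content the share of starts with a shared peak rose steeply. For divergent starts it was 3.70% under 55% GC (7 of 189), 19.9% from 65 to 70% (72 of 362), 46.7% from 70 to 75% (113 of 242, exact 95% interval 40.3 to 53.2) and 99 of 165 starts from 75% up (52.1 to 67.5). Lone starts had 3.72%, 22.6%, 35.3% (32.8 to 38.0) and 54.1% (51.3 to 56.8) in these classes. From 60 to 65% GC the shares were 6.99% for divergent and 11.6% for lone starts, with intervals that nearly met (upper bound 10.1 for divergent, lower bound 10.1 for lone). The intervals count both starts of a divergent pair although these often share a peak, so they are too narrow, and no order between divergent and lone starts is read from them. The part of GC content in the peak calls was not tested.

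**Figure D4:**
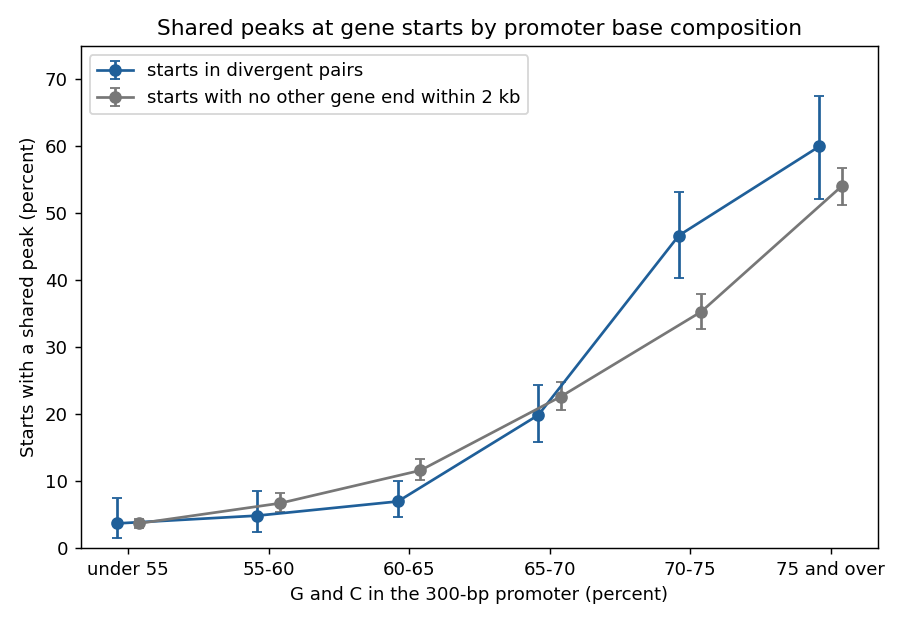
Percent of gene starts with a shared peak within 1 kb (vertical axis) by the GC content of the 300-base promoter (horizontal axis, 6 classes), for starts in divergent pairs (blue) and starts with no other gene end within 2 kb (grey), with exact 95% intervals as bars. Both lines rise from 3.70% and 3.72% in the lowest class, to 54.1% for lone starts in the highest, where 99 of 165 divergent starts have one.

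Short sequences were counted in the same promoters. GGGCGG was in 87.7% of divergent promoters at the peaks, 68.2% of divergent promoters without a shared peak, 83.2% of lone starts with one, and 58.5% of all 13792 promoters. CCGGAAG, the ETS letters, was in 23.7% at the peaks and 30.7% of divergent promoters without one, against 12.7% of lone starts with a shared peak and 14.6% of all. CCAAT was in 32.3% at the peaks, 32.3% of lone starts with a shared peak, 45.7% of divergent promoters without one and 37.1% of all. The forkhead letters TGTTTAC were in 1.67% (5 of 300), against 2.32% of lone starts with a shared peak and 2.53% of all promoters. TTTGAA, the CHR letters, was in 4.33%, against 6.95% of lone starts with a peak and 12.3% of all. TATAAA stood in 2.33%, against 4.48% of divergent promoters without a peak, 4.58% of lone starts with one and 10.0% of all. The part of base composition in these shares was not tested, and no match says only that these letters are not within the 300 bases.

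Fold at neighbouring gene ends, which helped to choose the peaks only through the calls, is given as a description. The median was 3.77 in replicate 2 and 3.93 in replicate 3, against 3.84 and 3.99 at the ends of 1 gene and 3.80 and 3.93 at no gene end. The differences from peaks at 1 gene were -0.0766 (-0.166 to 0.0723) and -0.0604 (-0.174 to 0.0533). These 95% ranges come from the order statistics of the 571 peaks, with the median at 1 gene held fixed. They treat peaks as independent, although some share a gene pair or a replicate 3 peak. They are thus too narrow for the difference. Fold reached 4 in both libraries at 27.0% of the 571, 27.4% of peaks at 1 gene and 25.8% of peaks at no gene end. Medians rested on 28 fragments in each library, over backgrounds of 5.42 and 5.12. Median width in replicate 2 was 265 bp, against 267 bp at 1 gene and 246 bp at no gene end.

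**Figure D5:**
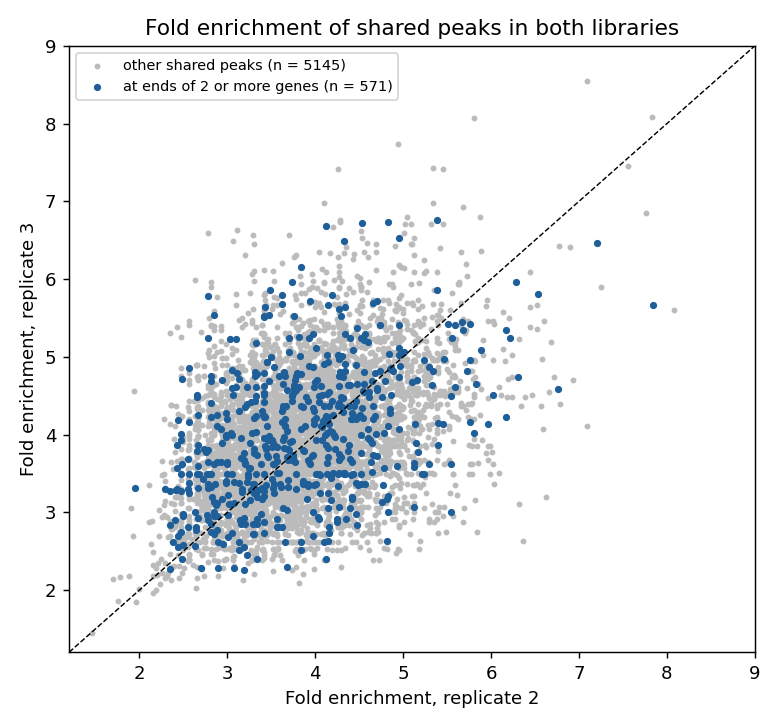
Fold enrichment in replicate 2 (horizontal axis) and replicate 3 (vertical axis) for the 571 shared peaks at ends of 2 or more genes (blue) and the other shared peaks (grey), with the line of equal fold dashed. The blue points spread over the same range as most grey ones, with medians of 3.77 and 3.93.

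The rule required a replicate 3 peak to overlap each peak, so the position of its summit is given as a description. Of the 571, 546 (95.6%) also had the replicate 3 summit within 1 kb of both nearest genes, and 482 (84.4%) kept the same nearer end. Summits of the libraries were a median of 107 bp apart. Fold was higher in replicate 3 at 325 peaks and higher in replicate 2 at 246, and Spearman's rho across the 571 peaks was 0.409, a description over peaks that share libraries and a local background. The intervals on fold overlapped at 569 of them. The 2 exceptions were C1orf122/YRDC, with 2.78 (1.84 to 4.04) in replicate 2 and 5.78 (4.21 to 7.75) in replicate 3, and ACTN3/ZDHHC24, with 1.95 and 3.32.

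Several peaks shared 1 gene pair, so the 571 peaks stood at 488 sets of genes. At 74 sets there was more than 1 peak, and 9 sets had 3 each. CHRD, a BMP antagonist gene, and THPO, which encodes thrombopoietin, start 366 bp apart and had replicate 2 folds of 4.08, 4.34 and 3.03, with 4.10, 4.91 and 5.24 in replicate 3. SCO2, a cytochrome c oxidase assembly gene, and TYMP, thymidine phosphorylase, had replicate 2 folds of 2.88, 5.40 and 2.67, and the last 2 of these overlapped the same replicate 3 peak, of fold 3.87. In all, the 571 peaks overlapped 529 replicate 3 peaks.

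Peaks over a high local background had many fragments and low fold. A replicate 2 background of at least 10 was found at 41 of the 571 peaks, 19 of them on chromosome 11. At RCE1/TOP6BL (chromosome 11, 66842860 to 66843841) 125 fragments over a background of 25 gave fold 4.12 in replicate 2, with a −log10 q of 26.1, the highest of the 571, and 101 fragments over 21.2 gave 3.99 in replicate 3. At CCDC87/CCS, the latter the copper chaperone of superoxide dismutase, 87 fragments gave only 2.49, and 2.58 in replicate 3. The lowest lower fold was at ACTN3/ZDHHC24, 1.95 on 70 fragments over a background of 30. These 41 peaks had median folds of 2.56 and 3.27. Their part in fold was not tested.

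Genes of known functional groups were counted at the 571 peaks beside the 4.87% of all protein-coding genes, and beside the 13.4% of the 7267 genes that have another gene end within 2 kb. Of 66 spliceosome and splicing factor genes 11 were there (16.7%, exact 95% interval 8.62 to 27.9), which is 27.5% of the 40 with a neighbour. They included PUF60, the core protein gene SNRPD3 (fold 4.15 in replicate 2 and 5.67 in replicate 3), U2AF2 of 3′ splice site recognition (4.22 and 3.82), SF3B2 (4.27 and 3.68), LSM3 (4.13 and 3.64) and the SR protein genes SRSF9, SRSF1 and SRSF2 (4.34 and 3.50, 4.77 and 3.35, 3.05 and 4.83). The peaks of U2AF2, SF3B2 and SRSF1 lay at a start and a finish on the same strand, 1 from each gene of the pair. Their replicate 2 summits were 117, 337 and 62 bp from the start of 1 gene and 627, 627 and 846 bp from the finish of the other. Which of these ends belongs to the splicing factor gene is not given here, and it may be the finish. Counting a gene here thus does not place a peak at its start. No test was run on the lists.

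Of 83 DNA repair genes, 58 had a neighbouring gene end and 31 stood in divergent pairs, and 6 were at the peaks (7.23%, 2.70 to 15.1; 10.3% of the 58). POLH, a translesion polymerase gene, shared its peak with the nuclear export receptor gene XPO5 (5.15 and 3.89). XPC, which detects DNA damage, shared one with LSM3, XRCC3 with ZFYVE21 (3.62 and 5.68), RAD52 with ERC1 (3.09 and 5.24), RECQL4 with LRRC14 (2.78 and 3.31) and DDB1 with TKFC (2.63 and 3.01). Of 66 G1/S and replication genes 5 were there (7.58%, 2.51 to 16.8; 15.6% of the 32 with a neighbour): POLE with PXMP2 (4.85 and 4.28), CCNA2, PCNA with CDS2 (3.62 and 2.82), MCM7 with AP4M1 (2.78 and 3.37) and FEN1 with TMEM258 (2.43 and 3.57). Of 68 G2/M genes 3 were (4.41%, 0.919 to 12.4; 11.5% of the 26 with a neighbour): CDC25B with CENPB (3.74 and 4.43), KIF22 with MAZ (2.81 and 4.41) and BORA with MZT1 (2.66 and 4.49). The G2/M share was near that of all genes, and its KIF22 peak lay at the finish of that gene.

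Of 77 mitochondrial ribosomal protein genes, 52 had a neighbouring end and 6 were at the peaks (7.79%, 2.91 to 16.2, and 11.5% of the 52). These were led by MRPS34 (by its finish), MRPL40 with the histone chaperone gene HIRA (4.84 and 5.04) and MRPL28 with PGAP6 (6.17 and 4.22). Of 78 ribosomal protein genes 4 were (5.13%; 10.8% of the 37 with a neighbour), with RPS18 highest (6.31 and 4.74, at its finish, shared with B3GALT4), and of 39 proteasome genes 2 were (5.13%; 11.8% of the 17 with a neighbour), PSMA1 (4.14 and 4.02) and PSMA7 (3.41 and 4.23). Single genes came from the aminoacyl-tRNA synthetases (AARS1, by its finish, with EXOSC6, 3.33 and 4.04; 1 of 37), from complex I (NDUFA13 with TSSK6, 2.88 and 2.78; 1 of 36) and from hepatocyte products (OTC with RPGR on X, 4.41 and 3.64; 1 of 41). Of 509 ZNF genes 8 were (1.57%, 0.681 to 3.07; 5.97% of the 134 with a neighbour), led by ZNF18 and ZNF512B (4.47 and 4.65). Of 68 replication-dependent histone genes, 53 had a neighbouring end and 29 stood in divergent pairs, and none was at the peaks, which leaves an exact upper limit of 5.28%. Only 1 of the 68 had any shared peak within 1 kb.

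Of 17 head-to-head pairs known from textbooks, 16 had ends within 2 kb in the gene table and 2 had a peak. Beside this, 9.55% of all pairs of ends at most 2 kb apart and 19.7% of divergent start pairs had one. With so few textbook pairs, no difference from these shares is read. The chaperonin genes HSPD1 and HSPE1, with starts 105 bp apart on chromosome 2, had fold 3.27 in replicate 2 and 4.42 in replicate 3. SURF1 and SURF2 on chromosome 9 had 2.48 and 3.49. RANBP1/TRMT2A had a shared peak at only 1 of its genes (3.56 and 3.71). Pairs such as ATM/NPAT, SIRT3/PSMD13, COL4A1/COL4A2, MRPS12/SARS2 and TAP1/PSMB9 had none. FOXM1 itself overlaps RHNO1, a checkpoint gene, with the nearest ends 909 bp apart, and this pair had none. A replicate 3 peak lay 128 bp from the FOXM1 end and 781 bp from that of RHNO1 (fold 3.49 on 35 fragments). Replicate 2 had no peak there that passed its threshold. Near the other end of FOXM1, overlapping peaks had summits 1372 bp (replicate 2, fold 3.42) and 1028 bp (replicate 3, fold 4.41) from that end, outside the 1 kb limit.

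Where the second gene lay close to the limit of 1 kb, fold on either side was as follows. Just inside, SIX5/DMPK at 1000 bp had fold 4.26 and 4.36, THAP4/ATG4B at 999 bp had 3.25 and 3.57, and GBF1/PITX3 at 997 bp had 2.81 and 3.33. ZBTB7B/DCST2 at 991 bp had 3.20 and 3.62. Just outside, NRSN2/LOC101929937 at 1003 bp had 2.25 and 3.48, TMEM129/TACC3 at 1004 bp had 4.58 and 4.36, and GPX1/RHOA at 1004 bp had 3.52 and 2.84. TACC3, a spindle gene, was thus left out by 4 bp. Read-through records, which join neighbouring genes under a name of their own and share their ends, touched 14 of the 571 peaks, among them MPV17L/MPV17L-BMERB1 (5.38 and 6.76).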

How the data were processed

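ChIP-seq peaks of 2 anti-FOXM1 libraries of Huh7 cells were used. The tools named per the submitters' processing notes are BWA, MACS2 2.2.7.1 and CASAVA 1.4, with the build GRCh38. Their roles, the filters, the control and the treatment of duplicates are not given in the sources used here. The authors deposited, per library, peaks with a fold enrichment (a linear ratio), a −log10 p, a −log10 q, a whole-number score (10 times −log10 q without its decimals, not used) and the summit offset in bp. Replicate 2 had 8271 peaks and replicate 3 had 11502, of which 41 and 45 outside chromosomes 1 to 22 and X were left out.

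Fragment counts and backgrounds at the summits were rebuilt from fold and −log10 p (Poisson upper tail), within 0.001 for 100% of peaks, with scales of 0.848 and 0.869 between ChIP and control. Of 1893 simulated peaks 99.9% had the exact count. The partner of a replicate 2 peak was the overlapping replicate 3 peak of highest fold. Gene ends came from RefSeq (GRCh38.p14), strand and promoters from its promoter records, which name a start but not the one used in Huh7. Shares have exact Clopper-Pearson 95% intervals. No test was run, since peaks are not replicates.

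Named are the 20 peaks of highest lower fold, up to 3 per gene list, textbook pairs with a peak, peaks at 3 genes, pairs closest and farthest apart, and the lowest 3 peaks, though not all are reported; other genes were chosen after their values were seen. The peaks, lists and rules were chosen with earlier results of these data known. Alternatives were other windows, thresholds, overlaps, gene records and single libraries. Python 3.11.15, numpy 2.4.6, pandas 2.3.3, SciPy 1.17.1 and matplotlib 3.10.9 were used, and overlaps were checked against bedtools, with a difference of 0.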

Additional observations from a re-analysis of the deposited data

Results flagged for a closer look

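Peaks called in 1 library alone entered no comparison above, and some of them also lay within 1 kb of ends of 2 or more protein-coding genes. Replicate 2 alone had 209 such peaks among its 2514 unshared peaks (8.31%), with a median fold of 3.56 on 25 fragments. The highest was at SMG6/SRR (chromosome 17, 2303511 to 2303770), with fold 6.22 and −log10 q of 10.1. Replicate 3 alone had 474 among 5788 (8.19%), with a median fold of 3.64 on 23 fragments. Its highest was at FBXL8/HSF4 (chromosome 16, 67164630 to 67164834), with fold 6.76, and NTHL1/TSC2, a DNA repair gene beside a growth control gene, had 6.23. Among shared peaks the share was 9.99% (exact 95% interval 9.22 to 10.8). The values for unshared peaks were lower, but no interval was computed for them, so no difference is read.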

How the results depend on the processing

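The 571 peaks, 973 genes, 523 pairs of ends and 48 listed genes depended on the rule. A window of 500 bp gave 308 peaks (5.39% of shared peaks), 568 genes, 291 pairs and 29 listed genes, and 2 kb gave 14.5%, 840 pairs and 78 listed genes. Requiring −log10 q of 5 or more in each library left 114 peaks, 214 genes, 113 pairs and 10 listed genes, and requiring a fold of 4 or more left 154, 290, 152 and 12. Reciprocal overlap of 50% gave 300 peaks (8.98%), 562 genes, 296 pairs and 27 listed genes, and summits within 100 bp gave 279, 521, 279 and 28. All gene types gave 1502 peaks (26.3%), 2705 genes, 1793 pairs and 79 listed genes, and starts only gave 306 (5.35%), 524, 271 and 25. With 1 library left out there were 780 to 1032 peaks (9.48% to 9.01%), 1294 to 1690 genes, 707 to 952 pairs and 77 to 101 listed genes, the higher counts without replicate 2. The median difference in fold from peaks at 1 gene moved to 0.0829 in replicate 2 at 500 bp, to 0.0770 and 0.0565 in replicates 2 and 3 with −log10 q of at least 5, and to 0.111 in replicate 3 with reciprocal overlap. With a library left out it was -0.0856 in replicate 2 and -0.00681 in replicate 3. Its sign is not settled, and the cause was not tested.

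Alternatives for the layouts, added after seeing the data, were run for 3 groups only and with no other window. The percent of divergent start pairs, same-strand start and finish pairs, and finish pairs with a peak was 19.7, 10.0 and 0.440. It was 4.51, 2.25 and 0 under the −log10 q limit, 5.78, 3.60 and 0 under the fold limit, 12.1, 5.74 and 0.147 with reciprocal overlap, 10.4 and 4.72 for the first 2 with summits within 100 bp, and 20.6, 17.7 and 0.484 for ends at most 1 kb apart. The gap between the first 2 thus depends on how far apart the ends may be. With 1 library left out it ran from 26.8 to 35.4, from 12.8 to 16.3 and from 1.03 to 2.05. Fewer peaks pass the stricter rules by construction. No paired analysis was possible because both ChIP libraries belong to 1 group. The intervals on fold rest on a median of 28 fragments a summit, and peaks missed at this depth were not measured.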

Other observations

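By chromosome, the share of neighbouring end pairs with a peak was highest on chromosome 20, with 25 of 137 pairs (18.2%, exact 95% interval 12.2 to 25.7), and lowest on X, with 1 of 148 (0.676%), the OTC/RPGR pair. Chromosome 5 had 9 of 510 (1.76%) and chromosome 22 had 20 of 119 (16.8%). These shares count pairs of all layouts together, finish pairs included, and the mix of layouts on each chromosome was not examined. The median replicate 2 background at the peaks was 7.18 on chromosome 20, 7.03 on chromosome 22 and 4.96 on chromosome 5. It was highest on chromosome 4 (7.84), with a share of 14.2%, and lowest on chromosome 21 (3.53), with 16.7% of 30 pairs.

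For divergent starts the distance between the starts made little difference up to 1 kb. Peaks stood at 22.6% of the 208 pairs at most 100 bp apart, 18.5% of 426 pairs at 101 to 300 bp, 22.7% of 119 at 301 to 500 bp and 24.6% of 61 at 501 to 1000 bp, with overlapping exact intervals. Beyond that it was 3.92% of 51 pairs, where the window in which a summit is near both starts shrinks by construction.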
